A study of Homo sapiens with 8 samples.

Results

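The genes described here are 30 targets of p53, chosen by name as genes that p53 is known to activate or to act through. No threshold on their signal was used, but the list was drawn up with earlier results of these data known. All probes of these genes were taken from the signal file of each array. Of the 30 genes, 28 had at least 1 named probe among the 16578 named genes of the array, and they were represented by 34 probes, with 23 genes on 1 probe, 4 on 2 probes and 1 on 3 probes. FAS and FDXR were not analysed here. The cells came from Caco2, an adherent colorectal adenocarcinoma line grown in DMEM with 20% serum, and from WM115, an adherent melanoma line from skin grown in RPMI with 10% serum. The Caco2 cells carried green fluorescent protein under the mouse Melk promoter, delivered by a lentivirus, and were isolated as clones, and the labels do not give the clone behind each sort. Both lines were stained with AC133, an antibody to an epitope of CD133 (the product of PROM1). After removal of doublets and dead cells by flow cytometry, the brightest 10% of cells (AC133 high) and the unstained cells (AC133 negative) were collected. Sorting was done 2 times per line, so that each of the 4 groups has 2 arrays. The labels record no drug, radiation or other treatment of the cells besides staining and sorting. RNA abundance was measured on 1-colour bead arrays, on which a probe carries a median of 41 to 42 beads.

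p53 is a transcription factor that is kept scarce by its target MDM2, a ubiquitin ligase, and that accumulates after DNA damage and other stresses. Its targets stop the cell cycle, start apoptosis, repair DNA, alter metabolism and feed back on p53 itself, and many are also expressed at a basal level or under other transcription factors. Caco2 is known to carry a truncating mutation in its p53 gene; the labels state no p53 status for either line, and the p53 transcript itself was not analysed here.

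p53 binds DNA as a tetramer to a pair of decamers, each built around a 4-base core. To show what such a site looks like near these genes, RefSeq promoter windows (GRCh38.p14, 300 bases, from 250 before the transcription start to 50 from it) were searched on both strands for the core pair, which is CATG, CAAG or CTTG, then 6 bases of any kind, then CATG, CAAG or CTTG again, and for the p53 decamer consensus. A window was found for 23 of the 30 genes. The core pair was in 3 of these 23 windows (13.0%), against 3.38% of 27305 windows of the table, and the decamer in 3 of 23 (13.0%), against 6.54% of all windows. These matches describe letters and not bound sites, since p53 also acts at introns and at distances that the windows do not hold. The stretches of 4 genes with measured transcripts are shown on the strand of the gene, with the matching bases in capitals, because they are the measured members with a match.
AEN, chr15:88621300-88621329, + strand: ggagccGGGCTTGCCCGGGCATGtgggagc
EI24, chr11:125569457-125569486, + strand: cgtgcggcccGGGCATGCCCagtgcgggcg
GDF15, chr19:18386178-18386207, + strand: acctgcacagcCATGCCCGGGCAAGaactc
TRIAP1, chr12:120446335-120446364, - strand: tgtgggggaggCATGCACGGACATGaagcg
In AEN the match lies between 34 and 18 bases before the start, and the core pair overlaps the decamer there. EI24 holds the decamer in the 10 bases before its start. GDF15 and TRIAP1 hold the core pair from base 32 to base 45 of the transcript.

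Signals are given as log2 of the probe's brightness after background correction and quantile normalization, so a difference of 1 is a change of 2-fold, and values are listed as sort 1 and then sort 2. A probe was called detected on an array where its detection p-value against the negative controls was under 0.05. Between 11915 and 13144 of 22184 probes were detected per array (53.7% to 59.3%), with median signals of 49.5 to 58.8 intensity units. PROM1 checked the sort, with 10.94 and 11.10 in AC133 high against 6.64 and 7.04 in AC133 negative Caco2 cells, and 9.58 and 9.52 against 5.71 and 6.21 in WM115 cells. All 9 tested markers of colon epithelium were higher in Caco2 (summed signal 29415 to 33463 units per array, against 808 to 983 in WM115), and all 10 of the melanocyte lineage were lower (140 to 157 units, against 15227 to 26322). Over all tested genes 30.4% were higher and 29.9% lower. Among these markers CDH1, VIL1, CDX2, KRT8, KRT19, KRT20 and CDH17 were tested only through their Caco2 signal. SOX10, MLANA, TYR, TYRP1 and S100B were tested only through their WM115 signal. The direction of these 2 sets was thus built into their selection. Of 5 blood cell markers on the array, 2 to 3 were detected per Caco2 array and 1 to 2 per WM115 array, with summed signals of 2560 to 5242 and 33.4 to 37.9 units. Lysozyme (LYZ) was detected on all 8 arrays and 129-fold higher in Caco2 (limma adjusted p = 4.14e-09), CD14 was detected on the Caco2 arrays alone (at least 2.25-fold higher), PTPRC on 1 array of each line, and CD3E and HBB on none. Of 6 fibroblast markers, 2 to 4 were detected per array in either line, with summed signals of 174 to 664 units in Caco2 and 901 to 2404 in WM115. PDGFRA was at least 12.5-fold higher in Caco2, LUM 31.7-fold and DCN at least 1.92-fold lower, and COL1A2 was detected on no array. The direction of CD14, PDGFRA and DCN was likewise built in, since each was detected in a single line. COL1A1 was detected on 1 array of each line. COL3A1, detected on 3 Caco2 arrays and 1 WM115 array, did not pass (limma adjusted p = 0.404). The second AC133 negative sort of WM115 had the highest fibroblast sum (2404 units) and 4 of these genes detected, against 2 on each other WM115 array. The part of the blood cell and fibroblast markers in the results was not tested. The second AC133 negative sort of WM115 stood apart, with 175 probes over 2-fold above each other WM115 array, against 0 to 18 for any other array of its line or of Caco2. Probes over 2-fold below the rest of the line numbered 37 there, 48 on the first AC133 negative sort of Caco2 and 0 to 11 elsewhere.

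The main question was how the 2 lines differ in these genes. Of 26 targets that could be tested, 15 differed between the lines (57.7%), with 11 lower (42.3%) and 4 higher (15.4%) in Caco2, while 60.3% of all 11214 tested genes differed, 29.9% lower and 30.4% higher. The targets lower in Caco2 by the largest folds were the stress cytokine GDF15 (17.4-fold), the cell cycle inhibitor CDKN1A (13.3-fold) and the AKT repressor PHLDA3 (at least 10.9-fold). Those higher by the largest folds were BCL2L1, a gene of apoptosis and survival (5.31-fold), and the death receptor TNFRSF10A (at least 3.90-fold). The total share of targets that differed was thus near that of all genes, and more of them lay on the lower side than on the higher one. This split includes PHLDA3, PLK3, MDM2 and PMAIP1, tested only through their WM115 signal, and TNFRSF10A, tested only through its Caco2 signal. Their direction was thus built into their selection. Of 21 targets with a probe detected on all 8 arrays, 7 were lower and 3 higher, and the shares by direction were not counted over all such probes. The median difference in log2 signal was -0.26 over the targets and 0.02 over all genes.

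The comparison set 4 arrays of Caco2 against 4 of WM115 over both AC133 states, in a limma model of the 4 groups fitted to 13844 probes, with Benjamini-Hochberg adjustment and a threshold of 0.05. A gene was read from its brightest tested probe. A probe entered the test where it was detected on both arrays of at least 1 group, and 30 of the 34 target probes did. POLK, a DNA polymerase that copies past damage, and SERPINB5, the serpin maspin, were detected on no array and were not tested.

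**Figure D1:**
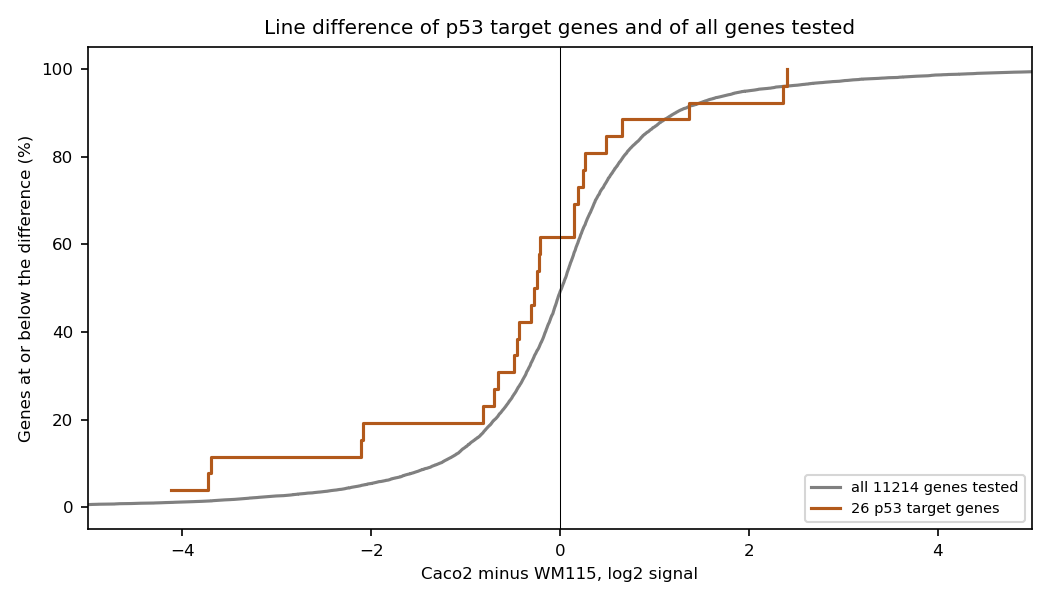
Cumulative percentage of genes (y axis) at or below a given Caco2 minus WM115 difference in log2 signal (x axis) for the 26 tested p53 targets and for all 11214 tested genes. At 0 the curve of the targets lies above that of all genes, with 16 of 26 targets and 5508 of 11214 genes below 0. The differences of the targets run from -4.12 to 2.41.

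Caco2 lay on array positions A to D and WM115 on positions E to H of 1 slide. The line, its tissue, genotype, medium and array position, and the reporter and cloning of the Caco2 cells, thus cannot be told apart. In bulk RNA, fewer expressing cells and less RNA per cell cannot be told apart either. For a gene not detected on any array of a line, the fold is a lower bound, taken against the higher of its own signal and the dimmest detected signal on each of those arrays.

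Among the targets that arrest the cell cycle, CDKN1A stood out. It encodes p21, which blocks cyclin-dependent kinases. The log2 signals of CDKN1A were 6.09 and 6.58 in AC133 high and 6.33 and 6.55 in AC133 negative Caco2 cells, against 9.64 and 9.92 in AC133 high and 10.30 and 10.62 in AC133 negative WM115 cells. In deposited intensity units these were 93.5 to 108 in Caco2 and 841 to 1707 in WM115. Every Caco2 array lay below every WM115 array, and the difference of -3.73 ± 0.15 (SE) was 13.3-fold (limma adjusted p = 1.47e-07). A second CDKN1A probe lay near background, detected on 0 of 4 Caco2 and 2 of 4 WM115 arrays, and did not pass the test (-0.28, adjusted p = 0.0684). Its signals were 4.36 and 4.54 in AC133 high and 4.43 and 4.36 in AC133 negative Caco2 cells, against 4.48 and 4.77 in AC133 high and 4.85 and 4.71 in AC133 negative WM115 cells. The values of this dim probe overlapped between the lines, and the mean of the probes gave -2.01. PLK3, a stress-activated kinase, had 4.59 and 4.58 in AC133 high and 4.63 and 4.59 in AC133 negative Caco2 cells, against 5.08 and 5.06 in AC133 high and 5.04 and 5.02 in AC133 negative WM115 cells. It was detected on none of the 4 Caco2 arrays and all 4 WM115 arrays, which puts it at least 1.22-fold lower in Caco2 (adjusted p = 0.00391), and its arrays did not overlap. CCNG1, which encodes cyclin G1, and GADD45A, a stress protein that binds cell cycle and repair factors, did not pass over both states, with -0.21 (adjusted p = 0.281) and 0.24 (adjusted p = 0.121), although GADD45A differed in 1 of the AC133 states.

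MDM2 and PPM1D, the targets in the list that feed back negatively on p53, gave small differences. MDM2 had 4.82 and 4.69 in AC133 high and 4.43 and 4.81 in AC133 negative Caco2 cells, against 5.14 and 5.44 in AC133 high and 5.11 and 4.99 in AC133 negative WM115 cells. All 4 Caco2 arrays lay below all 4 WM115 arrays, close to the detection limit, and MDM2 was detected on 1 of 4 Caco2 arrays. The difference was -0.49 ± 0.13, or 1.40-fold lower in Caco2 (adjusted p = 0.0124). PPM1D, the phosphatase WIP1 that removes activating phosphates from p53 and its kinases, averaged 7.01 ± 0.17 in Caco2 and 7.25 ± 0.09 in WM115 (SD, n = 4 each), which did not pass (adjusted p = 0.131).

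Of 9 tested apoptosis and survival targets, 4 were lower and 2 were higher in Caco2, against 29.9% lower and 30.4% higher over all genes. PHLDA3, which restrains the survival kinase AKT, had 4.38 and 4.48 in AC133 high and 4.58 and 4.60 in AC133 negative Caco2 cells, against 7.92 and 8.41 in AC133 high and 7.89 and 8.60 in AC133 negative WM115 cells. It was not detected on any Caco2 array and was detected on all WM115 arrays, a level at least 10.9-fold lower in Caco2 (adjusted p = 4.27e-07). PMAIP1, the BH3-only protein NOXA, had 4.56 and 4.85 in AC133 high and 4.70 and 4.59 in AC133 negative Caco2 cells, against 6.66 and 6.70 in AC133 high and 6.27 and 7.50 in AC133 negative WM115 cells. Although the 4 WM115 values spread over more than 1 log2 unit, none reached down to the Caco2 values, of which 1 of 4 was detected. PMAIP1 was 4.31-fold lower in Caco2 by its measured signals (-2.11 ± 0.24, adjusted p = 9.17e-05), and the difference was -1.27 with no background correction. TP53INP1, a nuclear protein that promotes apoptosis and autophagy, had 5.72 and 5.94 in AC133 high and 5.71 and 5.34 in AC133 negative Caco2 cells, against 6.60 and 6.01 in AC133 high and 6.28 and 6.45 in AC133 negative WM115 cells. The ranges did not overlap, but they lay close together, and the difference was -0.66 ± 0.16 (adjusted p = 0.00782). AEN, an exonuclease that degrades DNA in apoptosis, had 8.93 and 8.96 in AC133 high and 9.44 and 9.11 in AC133 negative Caco2 cells, against 9.43 and 9.71 in AC133 high and 9.49 and 9.54 in AC133 negative WM115 cells. The highest Caco2 value, in the first negative sort, came within the range of WM115. The difference of -0.43 ± 0.12 passed (adjusted p = 0.0155), but not without the second AC133 negative sort of Caco2 (-0.35, adjusted p = 0.0528) or the second AC133 high sort of WM115 (-0.36, adjusted p = 0.0557), nor with median scaling (-0.47, adjusted p = 0.0953).

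On the higher side, BCL2L1 gave the largest difference. Its long form, BCL-XL, protects the mitochondrion. The annotation lists the brighter and the second probe of BCL2L1 under different transcripts, and neither was assigned to a splice form here. The folds of the gene thus cannot be read as those of BCL-XL. BCL2L1 had 12.04 and 11.90 in AC133 high and 12.05 and 12.05 in AC133 negative Caco2 cells, against 9.58 and 9.51 in AC133 high and 9.47 and 9.85 in AC133 negative WM115 cells. The Caco2 arrays all lay above the WM115 arrays with little spread, 5.31-fold higher (2.41 ± 0.12, adjusted p = 5.13e-07). Its second probe was 8.00-fold higher in Caco2 (adjusted p = 5.86e-06). EI24, a membrane protein of the endoplasmic reticulum linked to autophagy, had 10.54 and 10.68 in AC133 high and 10.61 and 10.72 in AC133 negative Caco2 cells, against 8.91 and 9.38 in AC133 high and 9.33 and 9.47 in AC133 negative WM115 cells. Again no array overlapped, and EI24 was 2.58-fold higher in Caco2 (1.36 ± 0.13, adjusted p = 3.49e-05). The 3 other genes of this role did not pass. BAX, which forms pores in the mitochondrial outer membrane, averaged 6.90 ± 0.43 in Caco2 and 6.41 ± 0.35 in WM115 (SD, n = 4 each; difference 0.49, adjusted p = 0.094). BBC3, the BH3-only protein PUMA, differed by 0.19 (adjusted p = 0.345) and TRIAP1, a small mitochondrial protein that restrains apoptosis, by 0.15 (adjusted p = 0.343).

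**Figure D2:**
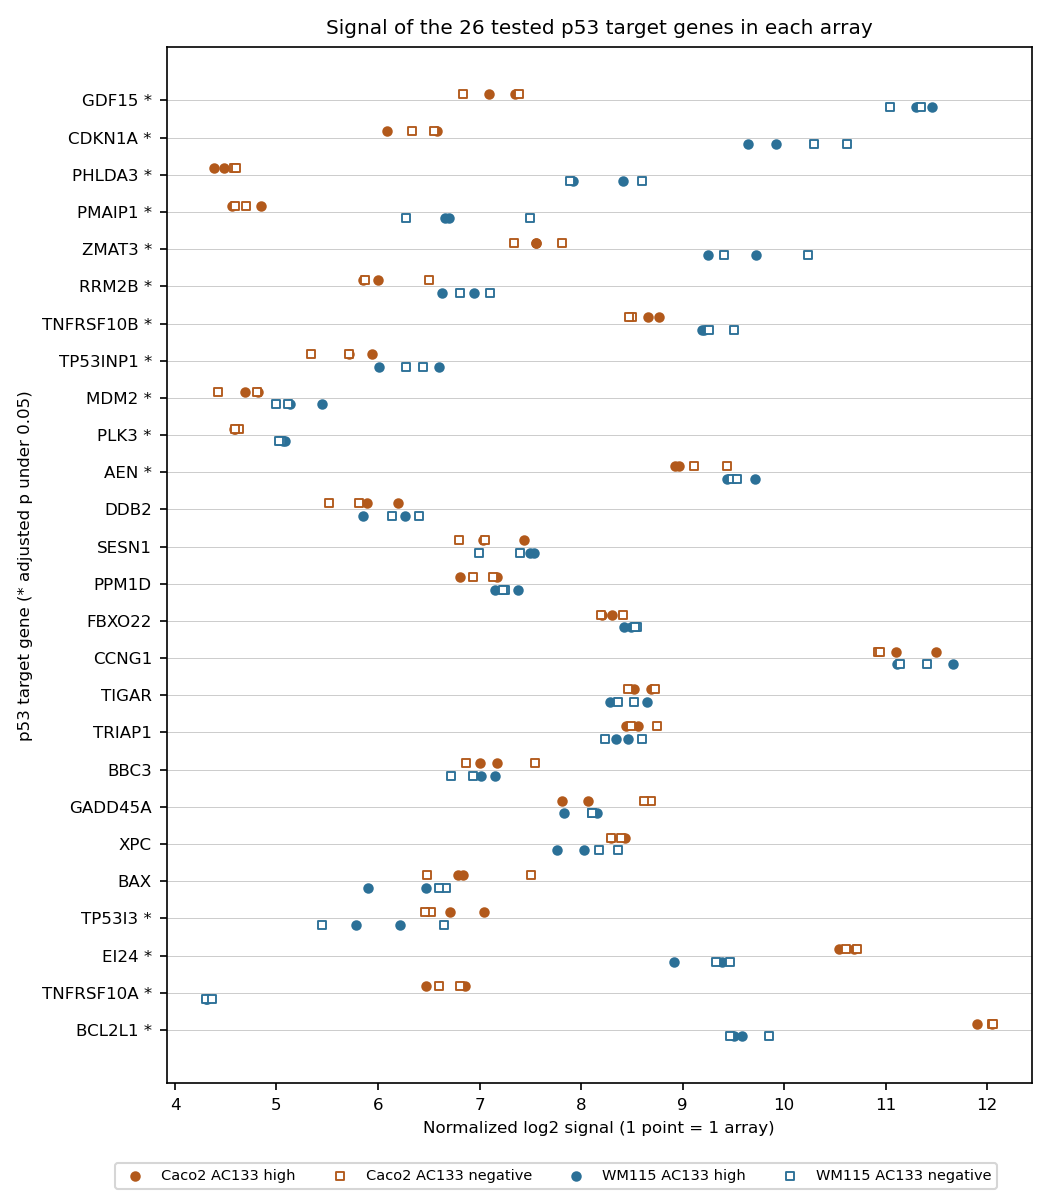
Normalized log2 signal (x axis) of the 26 tested p53 targets (y axis, ordered by the difference between the lines) in each of the 8 arrays, with filled circles for AC133 high and open squares for AC133 negative cells, Caco2 in orange and WM115 in blue. An asterisk marks an adjusted p under 0.05 for Caco2 against WM115; GDF15, CDKN1A and PHLDA3 at the top have Caco2 arrays over 3 log2 units below the WM115 arrays, and BCL2L1 and TNFRSF10A at the bottom have them over 2 units above.

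The death receptors for the ligand TRAIL moved apart. TNFRSF10A, which encodes receptor DR4, had 6.85 and 6.47 in AC133 high and 6.60 and 6.81 in AC133 negative Caco2 cells, against 4.30 and 4.32 in AC133 high and 4.31 and 4.36 in AC133 negative WM115 cells. It was detected on all 4 Caco2 arrays and on no WM115 array, at least 3.90-fold higher in Caco2 (adjusted p = 6.92e-07). TNFRSF10B, which encodes DR5, had 8.77 and 8.66 in AC133 high and 8.50 and 8.47 in AC133 negative Caco2 cells, against 9.19 and 9.21 in AC133 high and 9.26 and 9.51 in AC133 negative WM115 cells. Its Caco2 arrays all lay below the WM115 arrays, with a difference of -0.70 ± 0.11, or 1.62-fold (adjusted p = 0.000635). A dimmer second TNFRSF10B probe, detected on 2 Caco2 and 4 WM115 arrays, did not pass (-0.23, adjusted p = 0.372). Its signals, 4.81 and 4.63 in AC133 high and 4.61 and 5.23 in AC133 negative Caco2 cells, against 4.82 and 5.41 in AC133 high and 5.26 and 4.70 in AC133 negative WM115 cells, overlapped between the lines, and the mean of the probes gave -0.46 (adjusted p = 0.0118).

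Of the repair genes, RRM2B passed over both states. It encodes a subunit of ribonucleotide reductase that supplies nucleotides for repair, and it had 5.85 and 6.00 in AC133 high and 6.50 and 5.87 in AC133 negative Caco2 cells, against 6.94 and 6.63 in AC133 high and 6.81 and 7.10 in AC133 negative WM115 cells. No Caco2 array reached a WM115 array, and RRM2B was 1.76-fold lower in Caco2 (-0.81 ± 0.17, adjusted p = 0.00284). DDB2 and XPC, which recognise damage in nucleotide excision repair, did not pass. DDB2 averaged 5.85 ± 0.28 in Caco2 and 6.16 ± 0.23 in WM115 and XPC 8.35 ± 0.07 in Caco2 and 8.08 ± 0.25 in WM115 (SD, n = 4 each), with adjusted p = 0.105 and 0.0759.

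In metabolism and redox balance, 1 of 3 tested targets passed, and narrowly, against 60.3% of all genes. TP53I3, a quinone oxidoreductase also known as PIG3, had 6.71 and 7.05 in AC133 high and 6.52 and 6.47 in AC133 negative Caco2 cells, against 5.78 and 6.22 in AC133 high and 5.45 and 6.65 in AC133 negative WM115 cells. The second AC133 negative WM115 array lay among the Caco2 values, and the difference of 0.66 ± 0.25 only just passed (adjusted p = 0.0486). The call was lost under 14 of 18 alternatives, among them the sort as a block (adjusted p = 0.0604), median scaling (0.117), no background correction (0.0525), no filter on dim probes (0.129) and the methods' t-test after Benjamini-Hochberg (0.102). It was also lost without any 1 array other than that one (0.36 to 0.77), while without that array it was 0.96 (adjusted p = 0.0012). SESN1, a sestrin that restrains mTORC1, and TIGAR, a phosphatase that slows glycolysis, differed by -0.28 (adjusted p = 0.136) and 0.14 (adjusted p = 0.379).

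The largest difference of all 26 targets belonged to GDF15, a secreted cytokine of the TGF-beta family that serves as a stress signal. GDF15 had 7.09 and 7.35 in AC133 high and 6.84 and 7.39 in AC133 negative Caco2 cells, against 11.30 and 11.46 in AC133 high and 11.04 and 11.35 in AC133 negative WM115 cells. In deposited intensity units these were 145 to 184 in Caco2 and 1990 to 2989 in WM115. The arrays of each line lay close together and far from those of the other line, 17.4-fold lower in Caco2 (-4.12 ± 0.16, adjusted p = 8.87e-08). ZMAT3, an RNA-binding zinc finger protein that acts on splicing and transcript stability, had 7.55 and 7.56 in AC133 high and 7.34 and 7.81 in AC133 negative Caco2 cells, against 9.25 and 9.72 in AC133 high and 10.23 and 9.40 in AC133 negative WM115 cells. It was 4.25-fold lower in Caco2, with no overlap (-2.09 ± 0.21, adjusted p = 3.97e-05). FBXO22, the substrate-binding part of a ubiquitin ligase, averaged 8.28 ± 0.10 in Caco2 and 8.50 ± 0.06 in WM115 (SD, n = 4 each). Its arrays did not overlap between the lines, yet the difference of -0.22 did not pass (adjusted p = 0.107), and a second probe gave -0.15 (adjusted p = 0.524).

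Counted by separation alone, the 4 arrays of Caco2 and the 4 of WM115 did not overlap for 14 of the 26 targets (53.8%), with 3 above and 11 below in Caco2, against 57.1% of all genes, 28.7% above and 28.4% below. PHLDA3, PLK3, MDM2 and PMAIP1 passed the filter through their WM115 signal and TNFRSF10A through its Caco2 signal, so a difference was built into their selection. With the test limited to probes detected on all 8 arrays, 21 targets remained in the test and 10 passed, 7 lower and 3 higher in Caco2, against 55.5% of the probes so tested (58.7% of probes in the test above). Without the second AC133 negative sort of WM115, the array that stood apart, 15 targets passed, 11 lower and 4 higher, against 57.2% of probes. In both of these alternatives the lower and higher shares were not counted over all probes, so the split by direction has no background.

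The line difference was then taken within each AC133 state, with 2 arrays against 2. In AC133 high cells 14 of 26 targets passed, 10 lower and 4 higher in Caco2, against 47.4% of all genes (23.9% lower, 23.5% higher). In AC133 negative cells 14 also passed, 10 lower and 4 higher, against 47.4% of all genes (23.6% lower, 23.8% higher). GDF15 differed by -4.16 in high and -4.08 in negative cells, CDKN1A by -3.45 and -4.02, and BCL2L1 by 2.43 and 2.39. PHLDA3, PMAIP1, ZMAT3, RRM2B, TNFRSF10A, TNFRSF10B, PLK3 and EI24 also passed in both states in the direction given above. The call count in AC133 high cells dropped to 8 without the first or the second Caco2 high sort (34.0% and 35.3% of all probes, against 45.9% with all arrays). That in negative cells dropped to 9 without the second Caco2 negative sort (36.1% of probes, against 45.8%). With the sort as a block 12 passed in high cells, XPC and MDM2 being lost, and 14 in negative cells.

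A few targets passed in only 1 state. GADD45A had 7.81 and 8.06 in AC133 high and 8.68 and 8.62 in AC133 negative Caco2 cells, against 8.16 and 7.83 in AC133 high and 8.11 and 8.11 in AC133 negative WM115 cells. The Caco2 negative arrays lay above all others, and the line difference was 0.54 (adjusted p = 0.0311) in negative cells and -0.06 (adjusted p = 0.806) in high cells. DDB2 had 5.89 and 6.20 in AC133 high and 5.81 and 5.52 in AC133 negative Caco2 cells, against 6.26 and 5.85 in AC133 high and 6.40 and 6.14 in AC133 negative WM115 cells. It passed in negative cells (-0.61, adjusted p = 0.0447) and not in high cells (-0.02, adjusted p = 0.962), where the lines overlapped. XPC had 8.43 and 8.29 in AC133 high and 8.39 and 8.29 in AC133 negative Caco2 cells, against 7.77 and 8.02 in AC133 high and 8.36 and 8.18 in AC133 negative WM115 cells. Its WM115 high arrays were the lowest, and it passed in high cells (0.47, adjusted p = 0.0459) and not in negative cells (0.07, adjusted p = 0.752). AEN and MDM2 passed in high cells and TP53INP1 in negative cells. Several of these calls were close to the threshold. With the block XPC had an adjusted p of 0.0501 and MDM2 of 0.0519 in high cells. Over all alternatives the call was lost in 11 of 19 for XPC, 13 of 18 for MDM2 and 5 of 19 for AEN in high cells. In negative cells it was lost in 13 of 19 for DDB2 (adjusted p up to 0.211), 5 of 19 for GADD45A and 4 of 19 for TP53INP1. Of the targets that passed in both states, PLK3 lost its call in 7 of 18 alternatives in high and 12 of 18 in negative cells, TNFRSF10B in 7 and 2 of 19, and RRM2B in 4 and 7 of 19. The test of the difference itself, the interaction of line and AC133 state, passed for 0 of 26 targets, against 0.0713% of all genes. At an unadjusted p under 0.05 it gave 1 target of 26, against 6.19% of all genes, and this was GADD45A (-0.61, adjusted p = 0.796). No target was shown to differ between the states in its line difference.

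**Figure D3:**
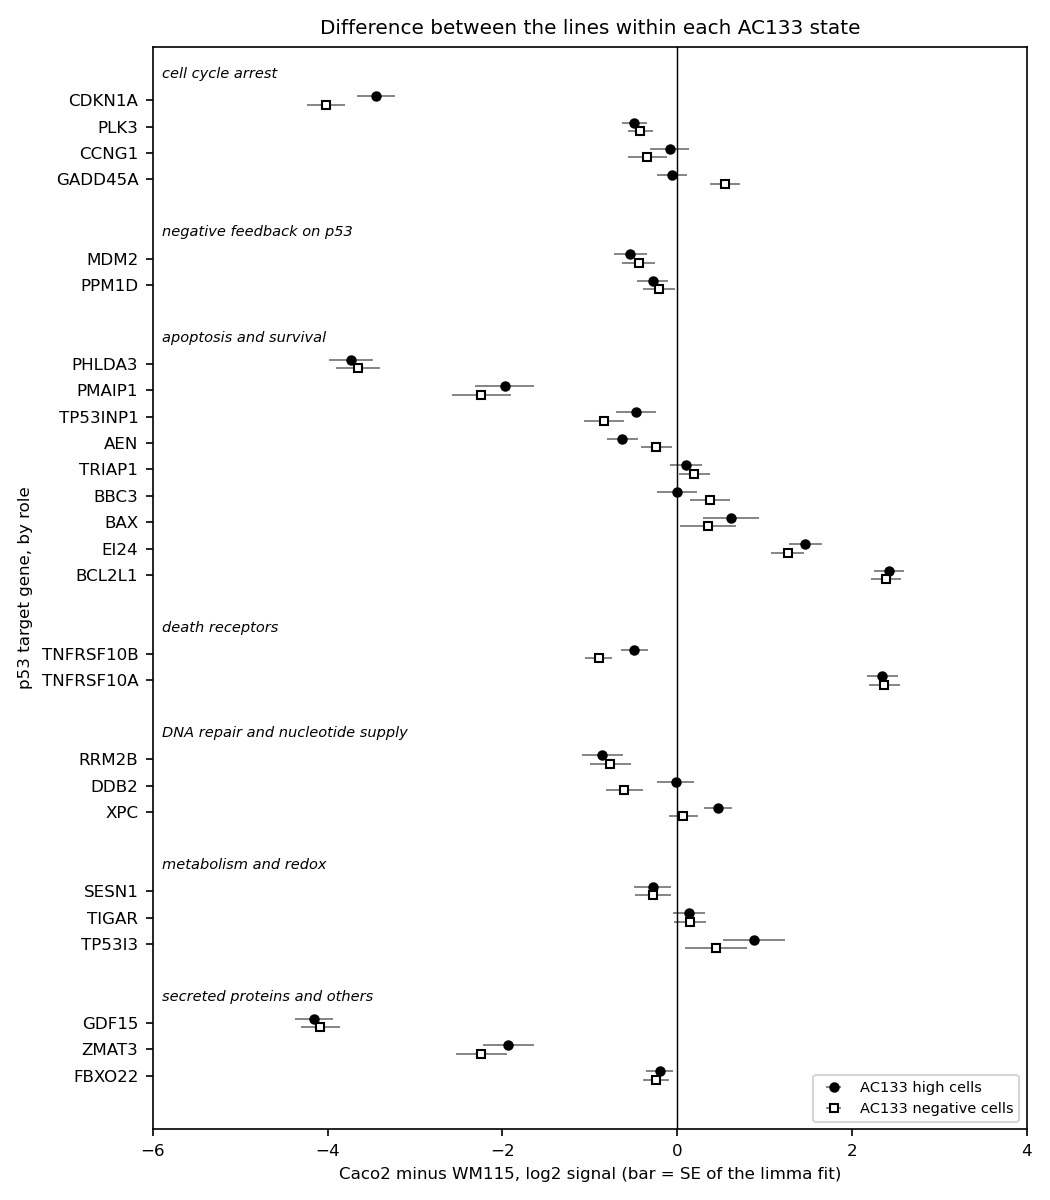
Caco2 minus WM115 difference in log2 signal (x axis) of the 26 tested p53 targets (y axis, grouped by role), with filled circles for AC133 high cells, open squares for AC133 negative cells and bars for the standard error of the limma fit (2 arrays per line in each state). The points of the 2 states lie close together for the large differences, from GDF15 near -4 to BCL2L1 above 2.

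The AC133 state itself was compared as high minus negative cells within each line. In Caco2, 0 of 26 targets passed the limma test, against 0.838% of all genes, and 1 (3.85%) had an unadjusted p under 0.05, against 7.90% of all genes. In WM115, 0 of 26 passed, against 0.0178% of all genes, and again 1 (3.85%) had an unadjusted p under 0.05, against 5.03% of all genes. The methods' t-test gave 1 target in Caco2 and 0 in WM115 at an unadjusted p under 0.05, and 0 in both lines after Benjamini-Hochberg adjustment. With 2 arrays a side, the smallest p of an exact permutation test would be 0.333. The differences ran from -0.72 to 0.39 in Caco2 and from -0.68 to 0.32 in WM115, with a median standard error of 0.193 over all probes.

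The smallest p in Caco2 was that of GADD45A, at 7.81 and 8.06 in AC133 high against 8.68 and 8.62 in AC133 negative Caco2 cells. Both high arrays lay below both negative arrays, with a difference of -0.72 ± 0.17 (unadjusted p = 0.00295, limma adjusted p = 0.177), and this was the target that the methods' t-test gave. AEN, the second, had 8.93 and 8.96 in AC133 high against 9.44 and 9.11 in AC133 negative Caco2 cells (difference -0.33, adjusted p = 0.781). DDB2 had 5.89 and 6.20 in AC133 high against 5.81 and 5.52 in AC133 negative Caco2 cells (difference 0.38, adjusted p = 0.803). The high and negative arrays did not overlap for these 3 targets. Such separation was seen for 9 of the 26 targets (34.6%) in Caco2, against 38.9% of all genes.

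In WM115 the smallest p was that of CDKN1A, at 9.64 and 9.92 in AC133 high against 10.30 and 10.62 in AC133 negative WM115 cells. Both high arrays lay below both negative arrays, with a difference of -0.68 ± 0.22 (unadjusted p = 0.0136, limma adjusted p = 0.829). XPC had 7.77 and 8.02 in AC133 high against 8.36 and 8.18 in AC133 negative WM115 cells (difference -0.38, adjusted p = 1.00). SESN1 had 7.50 and 7.54 in AC133 high against 7.40 and 6.99 in AC133 negative WM115 cells (difference 0.32, adjusted p = 1.00). The arrays of the 2 states did not overlap for these 3 targets, nor for 9 of the 26 in all (34.6%), against 28.5% of all genes. For CDKN1A the AC133 differences of -0.11 in Caco2 and -0.68 in WM115 stood beside a line difference of -3.73.

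Taken sort by sort, the AC133 differences kept their sign for 13 of the 26 targets in each line. In Caco2, 6 targets were higher in high cells in both sorts, 7 were lower in both and 13 moved in opposite directions, over a range of -0.88 to 0.68. In WM115, 5 were higher in both sorts, 8 were lower in both and 13 moved in opposite directions, over a range of -0.98 to 0.55. The same count was not made over all genes, so these counts cannot be read as particular to the targets.

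**Figure D4:**
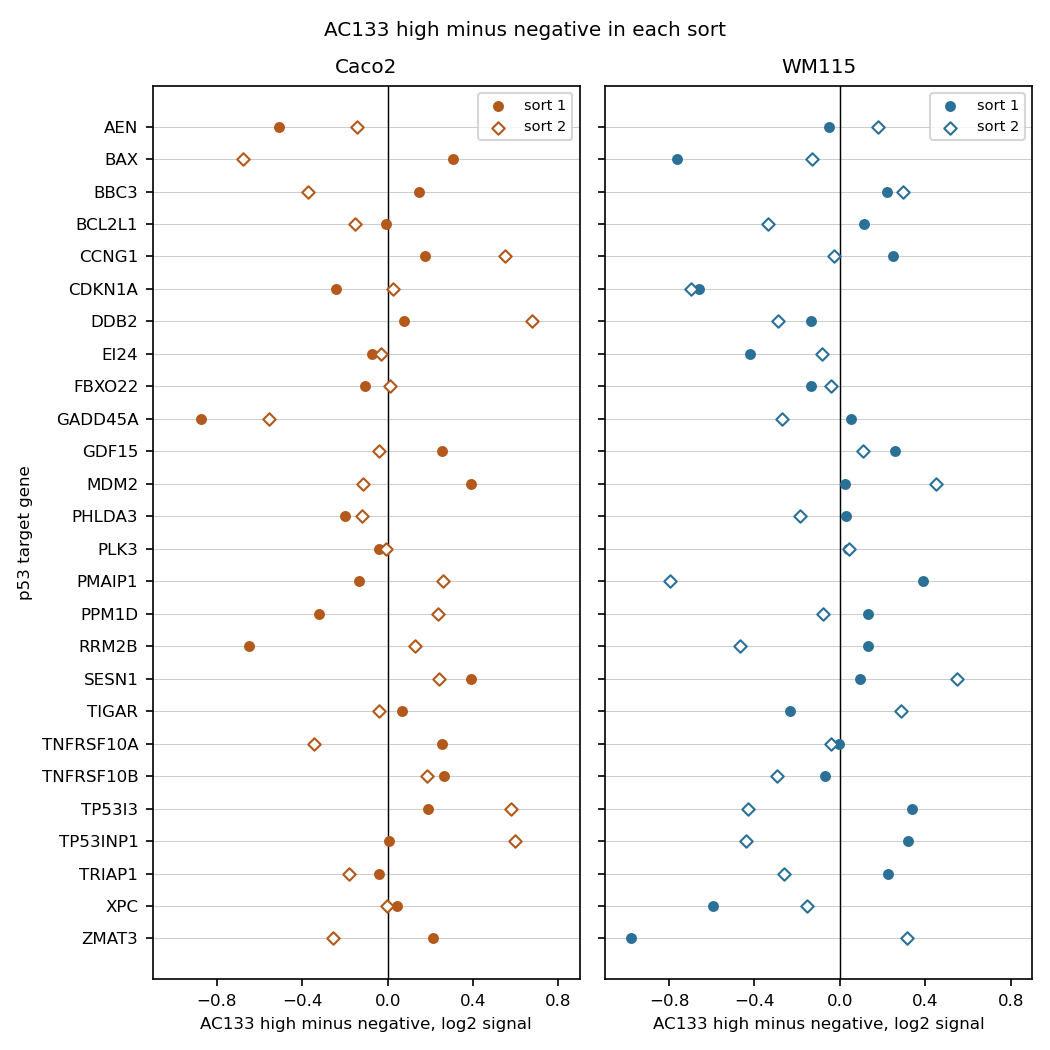
AC133 high minus negative difference in log2 signal (x axis) of the 26 tested p53 targets (y axis) in sort 1 (filled circles) and sort 2 (open diamonds) of Caco2 (left) and WM115 (right). In each line 13 of the 26 targets have their 2 sorts on opposite sides of 0, and GADD45A in Caco2 and CDKN1A in WM115 lie left of 0 in both. The same count was not made over all genes.

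Genes around p53 were read beside its targets. Of 27 regulators of p53 and kinases of the damage response, 22 were tested, and 6 were higher and 2 lower in Caco2 (36.4%, with a median of 0.01), against 60.3% of all genes, 30.4% higher and 29.9% lower. CHEK1, a checkpoint kinase, was 4.28-fold higher (adjusted p = 1.64e-06), and PPP1R13L, the p53 inhibitor iASPP, 3.72-fold higher (adjusted p = 1.1e-05). USP7, a deubiquitinase of MDM2 and p53, was 1.99-fold higher (adjusted p = 0.00128) and BRD7, a bromodomain cofactor of p53, 1.80-fold higher (adjusted p = 0.000153). MDM4, the partner of MDM2 that masks the activation domain of p53, had 6.04 and 6.09 in AC133 high and 4.51 and 6.94 in AC133 negative Caco2 cells, against 7.36 and 8.08 in AC133 high and 8.11 and 6.92 in AC133 negative WM115 cells. The Caco2 values spread widely and 1 of them entered the WM115 range, and the difference of -1.72 ± 0.49 passed (adjusted p = 0.0155). It was -1.12 without the first AC133 negative sort of Caco2, and it failed without the second AC133 high sort of WM115 (-1.54, adjusted p = 0.0555) and with no filter on dim probes (adjusted p = 0.0683). TP53BP1, a mediator of the damage response, differed by -0.47 (adjusted p = 0.0182), and this call was lost without either second Caco2 sort (adjusted p = 0.0693 without the high and 0.0624 without the negative one) and with median scaling (0.0701).

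Of 48 further p53 targets outside the 30, 35 were tested, and 16 were lower and 10 higher in Caco2 (74.3%, with a median of -0.21), against the same 60.3% of all genes (29.9% lower, 30.4% higher). Lower were IGFBP3, a secreted binder of insulin-like growth factors (at least 10.8-fold, detected on no Caco2 array), RPS27L, a paralogue of a ribosomal protein (3.18-fold), E2F7, a repressor of cell cycle genes (4.88-fold), and the receptor NOTCH1 (3.80-fold). Higher were SFN, the epithelial 14-3-3 sigma (at least 10.4-fold, detected on no WM115 array), PANK1, which starts coenzyme A synthesis (3.54-fold), the receptor kinase EPHA2 (6.44-fold) and the adaptor TRAF4 (2.26-fold). The limma adjusted p of these 8 genes was at most 4.44e-05. IGFBP3 entered the test through its WM115 signal and SFN through its Caco2 signal, so a difference was built into their selection.

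Of 32 genes of the apoptosis machinery, 27 were tested, and 8 were higher and 7 lower in Caco2 (55.6%, with a median of 0.16), again against 60.3% of all genes (30.4% higher, 29.9% lower). Among the promoters of apoptosis, BIK was 3.40-fold, BAD 2.43-fold, FADD, the adaptor of death receptors, 1.83-fold and BOK at least 2.80-fold higher in Caco2. HRK and BCL2L11 (BIM), also BH3-only proteins, were at least 5.46-fold and at least 1.55-fold lower. Of the relatives of BCL2L1, BCL2A1 was at least 7.41-fold and BCL2 2.64-fold lower in Caco2, opposite to BCL2L1 in direction. The adjusted p of these 8 genes was at most 0.000666. HRK, BCL2L11 and BCL2A1 entered the test through their WM115 signal and BOK through its Caco2 signal, so a difference was built into their selection. With AC133, 0 genes of these 3 lists passed in either line; at an unadjusted p under 0.05 there were 4 of 84 tested genes in Caco2 (4.76%) and 9 in WM115 (10.7%), against 7.90% and 5.03% of all genes.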

How the data were processed

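Each deposited per-array file gives, per the file headers, an intensity per probe (mean bead signal from BeadStudio, linear scale), a detection p-value against negative controls, and the bead-to-bead standard error of that signal; no source used here says if background was subtracted. The authors' joint table holds the same intensity after their quantile normalization and served as an alternative. Genes were named from the platform annotation through current gene identifiers.

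Intensities were background corrected with limma 3.58.1 (R 4.3.3; normexp, control level inferred from the detection p-values, offset 16), quantile normalized and taken to log2. All 8 arrays entered a single limma model with a mean for each of the 4 groups, with 4 residual and 4.36 prior degrees of freedom. Tests were two-sided and adjusted by Benjamini-Hochberg over 13844 probes; the median standard error of the line difference was 0.137. Signals on 8 arrays limit the precision, and p-values measure the spread between sorted samples of each line. With 4 arrays against 4, an exact permutation test could not go below 0.0286. The 4 arrays of a line come from 2 sorts, and with 2 against 2 the limit would be 0.333. An SD with n = 4 is likewise taken over these 4 arrays.

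The labels give a sort number shared by the high and negative cells of a line. Deviations of same-numbered arrays correlated at 0.281 in Caco2 and 0.177 in WM115, and a fit with the sort as a block was made as an alternative. The code was tested on simulated data.

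The 30 genes, the other lists and the rule for named genes were chosen with earlier results of these data known. Named with all arrays are up to 10 targets per direction in the line difference, targets past the threshold elsewhere, the 3 smallest p per AC133 comparison and genes whose probes disagree; each further list gives up to 4 per direction with the smallest p. Alternatives were median scaling, no background correction, an offset of 50, the authors' table, no filter and a strict filter, the sort block, the methods' t-test, probe averaging, and leaving out each array.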

Additional observations from a re-analysis of the deposited data

How the results depend on the processing

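Of 26 targets, 15 differed between the lines over both AC133 states, and the count ran from 10 to 16 over all alternatives and from 13 to 15 with 1 array left out. With the sort as a replicate block it was 14 (3 higher, 11 lower in Caco2), TP53I3 being lost; no other call over both states changed. In AC133 high cells the count of 14 (45.9% of all probes) became 9 with median scaling (35.7%), 8 with probes detected on all 8 arrays (41.7%) and 7 with the methods' t-test after Benjamini-Hochberg (16.6%), and 8 to 14 with 1 array left out (34.0% to 47.9%). In AC133 negative cells the count of 14 (45.8%) became 4 with that t-test (8.77%), and 9 to 13 with 1 array left out (35.6% to 44.6%). With the block these counts were 12 (45.8%), XPC and MDM2 being lost, and 14 (45.8%). For AC133 high against negative cells, the t-test at an unadjusted p under 0.05 gave 1 target in Caco2 (GADD45A); all other alternatives gave 0 in both lines, as with the block. No named difference changed sign. A fit of only the compared arrays applies to neither the line difference over both states nor the interaction. Dim probes limit PHLDA3, PLK3, MDM2, PMAIP1 and TNFRSF10A, whose signals in 1 line lie at background; with an offset of 50 their differences shrank to -2.54, -0.21, -0.23, -1.29 and 1.34 in that order, and all 5 still passed. With no background correction PMAIP1 was -1.27 and TP53INP1 -0.41, against -2.11 and -0.66.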
